A study of Mus musculus with 9 samples.

Results

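Drd4, Cds1, Il33, Lrtm1, Gpr152, Susd3 and Folh1 are 7 genes whose signal was among the most reduced in Rb-mutant relative to wild-type (WT) mouse retina although none encodes a member of the phototransduction cascade. They were chosen by that contrast, as large falls in the mutants against WT lying outside the cascade, and they are 7 of the 24259 genes with a probe set of their own on the array. The rule set no numerical threshold. The differences of the mutants from WT are therefore given as descriptions with no test, whereas the contrast between the 2 mutants was not part of the rule and is tested, with the reservation that the same mutant arrays entered the choice.

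The study compared 3 genotypes at postnatal day 8: retinas lacking both Rb and p107 (the Rb/p107 double knockout, DKO), retinas lacking Rb (Rb KO) and WT retinas, with 3 biological replicates of each. Total RNA of dissected retina was labelled with biotin after whole-transcript amplification and hybridised to Affymetrix arrays, one sample per array. All groups were on the mixed C57Bl/6x129SvJ background. The labels name neither the alleles nor any Cre driver, so whether part of each mutant retina kept Rb cannot be read from them. Values are log2 intensities from robust multi-array averaging (RMA), so a difference of 1 is a doubling of signal. The retina was measured whole, so fewer cells of a type and less RNA per cell cannot be told apart in any value below.

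Rb and p107 are pocket proteins that bind E2F transcription factors and restrain the cell cycle. In the first postnatal weeks of the mouse, rods leave the cycle and build their outer segments and synapses. The 7 genes act at other steps of cell biology. Drd4 encodes the D4 dopamine receptor, which couples to inhibitory G proteins and lowers cyclic AMP in photoreceptors. Gpr152 encodes an orphan receptor of the rhodopsin family. Cds1 encodes a CDP-diacylglycerol synthase, which turns phosphatidic acid into the precursor of phosphatidylinositol, and in Drosophila the homologous enzyme is needed to sustain the photoreceptor response. Folh1 encodes glutamate carboxypeptidase II, which cleaves the neuropeptide N-acetylaspartylglutamate (NAAG) and removes glutamates from folates. Il33 encodes interleukin 33, a nuclear cytokine of the interleukin 1 family that Muller glia are known to make in the retina. Lrtm1 encodes a membrane protein with leucine-rich repeats, and Susd3 a membrane protein with a sushi domain.

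Upstream sequences were available from RefSeq (GRCm38.p6) for 6 of the 7 genes, as 7 promoters, since Il33 has a pair. The 250 bases before the start were searched on both strands for the CRX core (TAATCC), the NRL motif (TGCTGA), the E-box (CACGTG), a nuclear receptor motif (AGGTCA), the cyclic AMP response element (TGACGTC, CRE) and the E2F core (TTGGCGC or TTCGCGC). CRX and NRL are the factors that drive photoreceptor genes, and E2F factors are the partners of the pocket proteins. The 3 promoters that held any of the motifs searched are shown, with that of Drd4 as one that held none. Sequences run 5′ to 3′ on the strand of the gene and end at the base before the start, and capitals mark the motifs. Drd4 lies at chr7:141291768-141292017 (plus strand), Cds1 at chr5:101764880-101765129 (plus strand), Lrtm1 at chr14:29017958-29018207 (plus strand) and Susd3 at chr13:49248295-49248544 (minus strand).
Drd4: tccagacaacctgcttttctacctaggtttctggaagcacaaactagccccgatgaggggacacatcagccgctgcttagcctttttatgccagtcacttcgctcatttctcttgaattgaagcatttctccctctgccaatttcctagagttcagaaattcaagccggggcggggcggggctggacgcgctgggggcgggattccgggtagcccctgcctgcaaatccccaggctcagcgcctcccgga
Cds1: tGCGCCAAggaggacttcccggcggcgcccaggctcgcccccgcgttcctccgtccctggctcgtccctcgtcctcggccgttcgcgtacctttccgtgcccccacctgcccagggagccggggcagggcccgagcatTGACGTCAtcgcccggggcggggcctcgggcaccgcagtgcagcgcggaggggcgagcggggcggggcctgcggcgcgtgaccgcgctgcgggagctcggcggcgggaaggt
Lrtm1: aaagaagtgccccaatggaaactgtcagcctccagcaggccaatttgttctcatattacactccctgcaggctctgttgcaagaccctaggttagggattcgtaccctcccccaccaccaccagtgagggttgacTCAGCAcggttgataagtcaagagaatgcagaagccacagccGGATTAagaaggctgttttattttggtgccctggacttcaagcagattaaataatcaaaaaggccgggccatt
Susd3: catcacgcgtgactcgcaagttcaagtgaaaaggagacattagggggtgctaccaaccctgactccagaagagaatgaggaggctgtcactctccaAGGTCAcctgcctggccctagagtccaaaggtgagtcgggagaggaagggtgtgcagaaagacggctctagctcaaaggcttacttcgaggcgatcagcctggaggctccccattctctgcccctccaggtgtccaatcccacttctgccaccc
The capitals in Lrtm1 are an NRL motif at -115 to -110, read on the opposite strand as TCAGCA, and a CRX core at -73 to -68, read as GGATTA. Cds1 held an E2F core at -249 to -243, on the opposite strand as GCGCCAA, and a CRE that reads on both strands and spans -112 to -105. Susd3 held a nuclear receptor motif at -154 to -149. Of the 7 promoters, 1 held the CRX core, against 6.25% of the 32851 promoters of the table, and 1 held the NRL motif, against 16.1%. The nuclear receptor motif was in 1 of 7, against 14%, the CRE in 1 of 7, against 2.78%, and the E2F core in 1 of 7, against 3.14%. The E-box was in 0 of 7, against 6.02%. A match is a stretch of letters and not a measured binding site. The Cds1 promoter was the richest in G and C, at 77.6%, against a median of 52.4% over all promoters, while the second Il33 promoter had 39.6%.

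A gene was taken as above background on an array where it exceeded 95% of that array's 5222 negative controls, a level of 8.29 to 8.43 in DKO, 8.32 to 8.5 in Rb KO and 7.94 to 8.34 in WT arrays. DKO replicate 2 stood apart from the other 8 arrays in genes unrelated to the 7. Its Xist reading was 5.47, against 11.44 to 12.15 elsewhere, and the summed linear signal of 11 lens genes was 10045, against 2796 and 3013 on the other DKO arrays. Several estimates of the 7 genes and the total count of pathway genes are given with and without this array. Most other counts, the marker medians and the likeness of profiles include it. Arrays correlated at 0.997 to 0.998 over all genes within DKO, at 0.996 to 0.997 within Rb KO and at 0.992 to 0.996 within WT. Rb1, the targeted gene, differed little on its brightest probe set, with means of 9.86 ± 0.13 in DKO, 9.91 ± 0.09 in Rb KO and 10.22 ± 0.23 in WT retinas (SD, n = 3 each). Its difference was -0.36 ± 0.12 (SE) in DKO against WT (limma, adjusted p = 0.0423) and -0.31 ± 0.12 in Rb KO against WT (adjusted p = 0.0793). The DKO call was lost without any one of 7 arrays, at adjusted p values of 0.0521 to 0.153, and the difference turned to 0.74 when the gene's probe sets were averaged. Which part of the gene the probe set reads was not known here, so Rb1 was no check of the genotype. p107 itself (Rbl1) was not analysed here.

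The receptors come first. Drd4 read 8.21, 9.32 and 8.89 in DKO, 8.44, 8.09 and 8.27 in Rb KO, and 10.59, 10.93 and 10.40 in WT retinas. Every mutant array lay below every WT array, and Drd4 was above background on 2 of 3 DKO arrays, on no Rb KO array and on all 3 WT arrays. The means were 8.81 ± 0.56 in DKO, 8.27 ± 0.17 in Rb KO and 10.64 ± 0.27 in WT (SD, n = 3 each). The measured difference from WT was -1.83 in DKO, and -2.09 without DKO replicate 2. In Rb KO, where the level is only a bound, Drd4 was at least 4.77-fold lower than in WT. The bound sets the mean of the brighter group against the background level, or the gene's own reading where that is higher, of each array of the dimmer group. The same bound is used for the genes below.

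Gpr152 read 6.20, 6.82 and 6.82 in DKO, 6.27, 6.38 and 6.74 in Rb KO, and 8.46, 9.05 and 8.62 in WT retinas. The mutant readings all lay under background and did not reach the lowest WT reading. The means were 6.61 ± 0.36, 6.46 ± 0.24 and 8.71 ± 0.31 in DKO, Rb KO and WT (SD, n = 3 each). Because WT itself was close to background, the bounds were small: at least 1.26-fold lower in DKO and at least 1.25-fold lower in Rb KO, while the readings differed by -2.09 and -2.24.

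The enzymes followed. Cds1 read 7.13, 7.93 and 7.75 in DKO, 6.78, 6.79 and 7.57 in Rb KO, and 9.52, 9.90 and 9.55 in WT retinas. No mutant array was above background, all WT arrays were, and the groups did not overlap with WT. The means were 7.60 ± 0.42 in DKO, 7.05 ± 0.45 in Rb KO and 9.65 ± 0.21 in WT (SD, n = 3 each). Cds1 was at least 2.42-fold lower in DKO and at least 2.41-fold lower in Rb KO than in WT, with reading differences of -2.05 and -2.61.

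Folh1 read 4.69, 5.57 and 4.90 in DKO, 4.85, 4.80 and 5.47 in Rb KO, and 7.13, 7.48 and 6.97 in WT retinas. All 9 readings lay under background, the WT ones included, so no fold is given for this peptidase. The readings were nevertheless separated, with means of 5.05 ± 0.46, 5.04 ± 0.37 and 7.19 ± 0.26 in DKO, Rb KO and WT (SD, n = 3 each). The differences of the means from WT were -2.14 in DKO and -2.15 in Rb KO.

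The cytokine Il33 read 6.998, 8.61 and 7.53 in DKO, 6.78, 6.91 and 7.53 in Rb KO, and 9.31, 9.64 and 9.24 in WT retinas. Every mutant array was below every WT array, and of the mutant arrays only DKO replicate 2 was above background. The means were 7.71 ± 0.82 in DKO, 7.07 ± 0.40 in Rb KO and 9.40 ± 0.21 in WT (SD, n = 3 each). The difference from WT was -1.69 in DKO. Without DKO replicate 2 the remaining DKO readings lay under background, and Il33 was at least 2.06-fold lower than in WT. In Rb KO the level was at least 2.02-fold lower than in WT.

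Lrtm1, the leucine-rich repeat gene, spread most among the mutants. It read 7.22, 9.32 and 8.20 in DKO, 7.18, 7.19 and 8.28 in Rb KO, and 10.45, 10.75 and 10.64 in WT retinas. DKO replicate 2 was the only mutant array above background, yet it too lay below all WT arrays. The means were 8.24 ± 1.05 in DKO, 7.55 ± 0.63 in Rb KO and 10.62 ± 0.15 in WT (SD, n = 3 each). The difference from WT was -2.37 in DKO. Without DKO replicate 2 the remaining DKO readings lay under background, and Lrtm1 was at least 4.78-fold lower than in WT. In Rb KO Lrtm1 was at least 4.69-fold lower than in WT.

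Susd3 spread least among the DKO arrays. It read 7.45, 7.93 and 7.76 in DKO, 7.51, 7.47 and 7.83 in Rb KO, and 9.39, 9.67 and 9.12 in WT retinas. All mutant readings lay under background and below all WT readings, and the means were 7.71 ± 0.25, 7.60 ± 0.20 and 9.39 ± 0.27 in DKO, Rb KO and WT (SD, n = 3 each). Susd3 was at least 2.02-fold lower in DKO and at least 2.01-fold lower in Rb KO than in WT, with reading differences of -1.68 and -1.79.

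**Figure D1:**
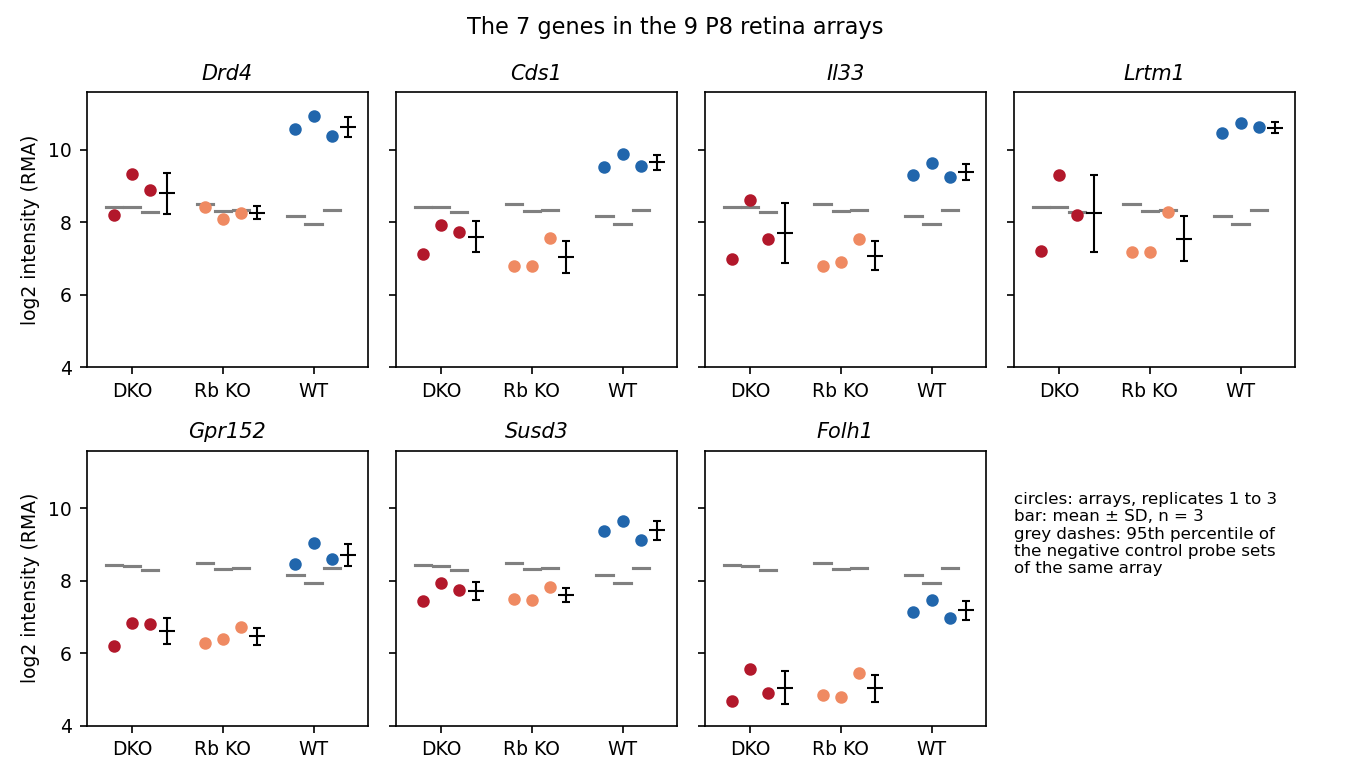
Log2 intensity (y axis) of the 7 genes in the DKO, Rb KO and WT arrays (x axis). Circles are arrays in the order of replicates 1 to 3, bars are mean ± SD (n = 3) and grey dashes are the level that 95% of the negative controls of the same array lie under. The WT circles lie above all mutant circles for every gene, and all Folh1 circles lie under the dashes.

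All 7 genes had each mutant group wholly below WT. Of all genes tested, 26.5% had every DKO array below every WT array and 21.5% had every Rb KO array below every WT array. The rule used these contrasts, so nothing is read from the count. Ranked by the difference from WT, the 7 stood between places 9 and 58 of the falls in DKO and between places 3 and 37 in Rb KO, with 3 and 6 of them among the first 20. Both rankings share the WT arrays, and they order readings: all 7 genes were under background on every Rb KO array, 4 of them on every DKO array, and Folh1 in WT too. Lrtm1 had the lowest place in both, 9 in DKO and 3 in Rb KO, and Susd3 the highest, 58 and 37. The median difference of the 7 from WT was -2.05 in DKO and -2.32 in Rb KO, beside -0.06 and -0.05 over all genes. With the genes under background at their bound, and without Folh1, the median over the remaining 6 was -1.48 in DKO and -1.14 in Rb KO. The Rb KO median rests on bounds alone and the DKO median partly on measured differences, so their sizes cannot be compared. The detection of the 7 was marginal: 6 were above background on every WT array, and only 1, Lrtm1, was above the 99th percentile of the controls on all of them.

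The contrast of DKO against Rb KO asks whether the additional loss of p107 was accompanied by a change in these genes. All 7 were under background on every Rb KO array and 4 of them, Cds1, Gpr152, Susd3 and Folh1, on every DKO array too, so the values that follow are differences of readings. None of the 7 passed the test (limma with Benjamini-Hochberg adjustment over all genes), where 2.54% of all genes did. For all 7 the DKO and Rb KO arrays overlapped, whereas over all genes 11.3% had all DKO arrays above and 10.9% all DKO arrays below the Rb KO arrays. At an unadjusted p under 0.05, 2 of 7 passed, Drd4 and Cds1, against 13.6% of all genes. The Drd4 readings differed by 0.54 ± 0.24 (SE, adjusted p = 0.345 in limma, 95% interval 0.02 to 1.06). Cds1 differed by 0.56 ± 0.24 (adjusted p = 0.330, interval 0.03 to 1.08). The estimates of Il33 and Lrtm1 were of like size but less certain. Il33 differed by 0.64 ± 0.34 (adjusted p = 0.472, interval -0.11 to 1.38). Lrtm1 differed by 0.69 ± 0.44 (adjusted p = 0.597, interval -0.28 to 1.67). The other three estimates were nearer 0: 0.15 for Gpr152 (adjusted p = 0.877, interval -0.28 to 0.58), 0.11 for Susd3 (0.895, interval -0.24 to 0.46) and 0.02 for Folh1 (0.994, interval -0.51 to 0.54). The intervals of Drd4, Cds1, Il33 and Lrtm1 reach past 1 log2 unit of reading, so the mutants are not shown to be alike.

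Single arrays moved these estimates, DKO replicate 2 among them. Without it they were 0.28 for Drd4, 0.39 for Cds1, 0.19 for Il33 and 0.16 for Lrtm1, with adjusted p values of 0.734, 0.667, 0.911 and 0.980. Without DKO replicate 1, the lowest of its group, they were 0.84, 0.79, 0.995 and 1.21, with adjusted p values of 0.0589, 0.165, 0.206 and 0.201. Without Rb KO replicate 3, the highest Rb KO array for 6 of the 7, they were 0.54, 0.82, 0.87 and 1.06, with adjusted p values of 0.564, 0.122, 0.414 and 0.421. No alternative setting made any of the 7 pass.

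**Figure D2:**
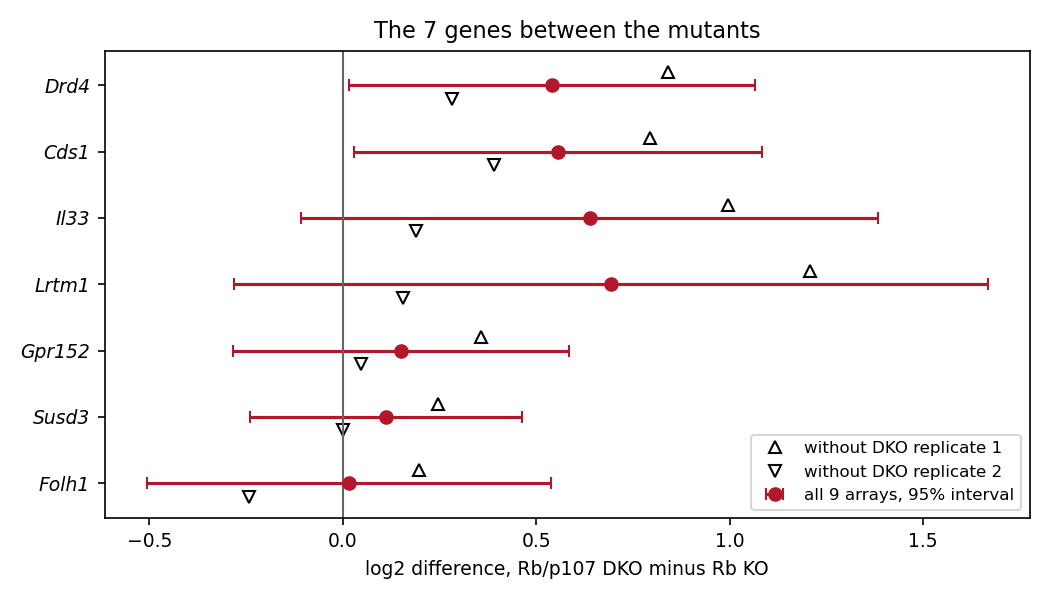
Difference of DKO minus Rb KO in log2 units (x axis) for each of the 7 genes (y axis), as points with the 95% interval of the limma fit. Triangles are the estimates without DKO replicate 1 (pointing up) and without DKO replicate 2 (pointing down). The estimates of Drd4, Cds1, Il33 and Lrtm1 lie between 0.54 and 0.69 and move to between 0.16 and 0.39 without replicate 2.

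Within each genotype the 7 genes mostly shared the array with the highest reading, and in DKO also the lowest. DKO replicate 2 was the highest DKO array for all 7 and DKO replicate 1 the lowest for all 7. Rb KO replicate 3 was the highest Rb KO array for 6, the exception being Drd4, which was highest in replicate 1. WT replicate 2 was the highest WT array for all 7. The lowest array was divided in Rb KO, replicate 1 for 4 genes and replicate 2 for 3, and in WT, replicate 3 for 4 genes and replicate 1 for 3. Over all genes the shares with the highest reading on the same arrays were 30.6% for DKO replicate 2, 27.5% for Rb KO replicate 3 and 38.9% for WT replicate 2. Among the 4153 genes that fell in DKO and the 3458 that fell in Rb KO, they were 46.1% for DKO replicate 2 and 57.9% for Rb KO replicate 3. WT replicate 2 was the highest WT array for 56.8% of the genes that fell in Rb KO. Other falling genes thus had the same arrays on top more often than genes at large, in the values that also chose them.

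The mean deviation of the 7 genes from their group mean was -0.55, 0.54 and 0.01 in DKO, -0.18, -0.20 and 0.38 in Rb KO, and -0.11, 0.26 and -0.15 in WT retinas. That of 15 rod markers was -0.48, 0.35 and 0.13 in DKO, -0.11, -0.38 and 0.49 in Rb KO, and -0.04, 0.05 and -0.01 in WT retinas. In the mutants the same arrays, DKO replicate 2 and Rb KO replicate 3, were highest by both measures, while in WT the rod markers hardly differed between arrays. WT replicate 2 also had the lowest background of all arrays and the largest share of genes above it, 36.4% against 27.2% to 32.1% elsewhere. Their part in the results was not tested.

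**Figure D3:**
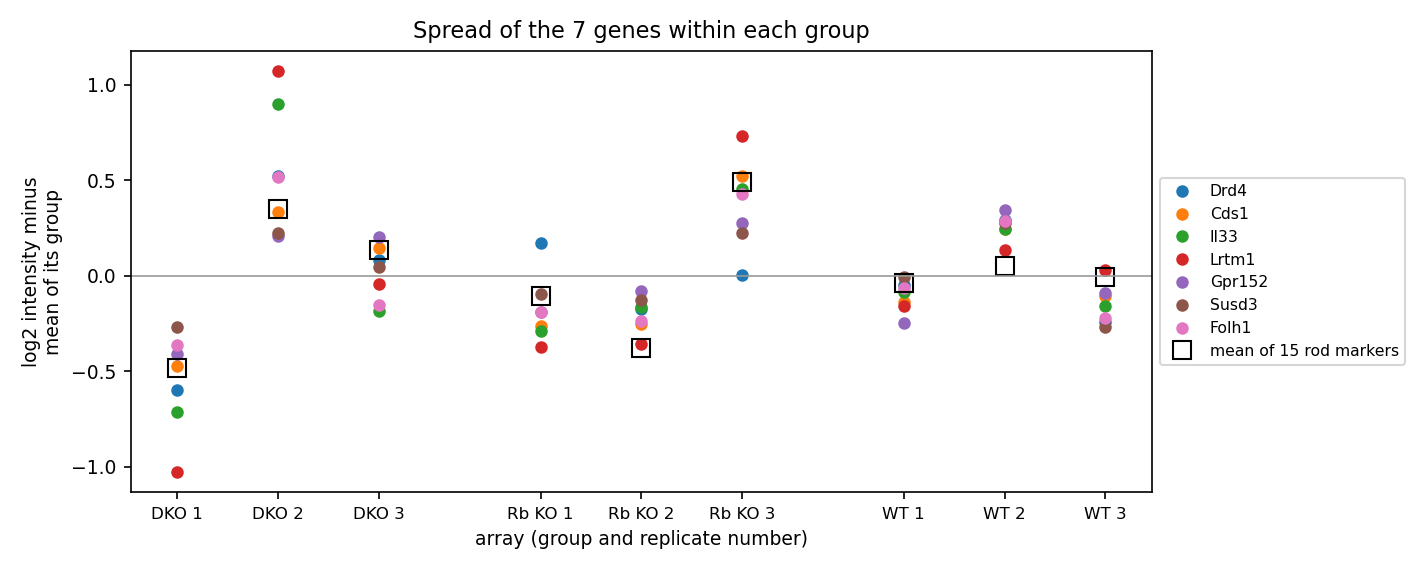
Deviation of each gene from its group mean in log2 units (y axis) on the 9 arrays (x axis, DKO, Rb KO and WT from left to right), for the 7 genes (coloured circles) and for the mean of 15 rod markers (open squares). DKO replicate 2, Rb KO replicate 3 and WT replicate 2 lie highest in their groups in the mean of the 7 genes, at 0.54, 0.38 and 0.26.

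Among themselves the 7 genes were compared by the root mean square difference of their 9 values after each was centred on its own mean. Gpr152 and Folh1 had the closest profiles, at 0.199, then Cds1 and Gpr152, at 0.221. Lrtm1 and Susd3 were farthest apart, at 0.689, the 2 genes with the largest and the smallest difference from WT. The same measure was run over 5453 other genes above background on all WT arrays. Its values describe likeness over these 9 arrays, and they carry the WT contrast that chose the 7.

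Cabp4, a calcium-binding protein of photoreceptor synapses, was among the 3 nearest genes of 5 of the 7: Cds1 at 0.127, Drd4 at 0.22, Gpr152 at 0.237, Il33 at 0.252 and Lrtm1 at 0.376. Vtn, which encodes the adhesive glycoprotein vitronectin, was nearest to Drd4 at 0.157 and to Il33 at 0.231, and lay at 0.175 from Cds1 and 0.209 from Gpr152. Lrtm1 was nearest to Slc24a1, the sodium, calcium and potassium exchanger of rods, at 0.206, followed by the cone opsin Opn1mw at 0.337. Susd3 was nearest to the nuclear receptor gene Esrrb at 0.108, to Plpp2, a lipid phosphatase, at 0.115, and to the semaphorin Sema7a at 0.134. Folh1, read under background, was nearest to Cabp5 at 0.223, to the guanylate cyclase gene Gucy2f at 0.226 and to Gsg1 at 0.226. The remaining near genes were Rcvrn (recoverin) for Cds1, Aipl1 for Il33, and Plpp2 for Gpr152 and Drd4.

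Lrtm1 lies inside the calcium channel subunit gene Cacna2d3, and its probe set moved against that of its host. Cacna2d3 read 9.63, 10.03 and 9.79 in DKO, 9.74, 9.76 and 9.18 in Rb KO, and 8.91, 9.13 and 8.79 in WT retinas. All mutant arrays were above all WT arrays for the host, the reverse of Lrtm1. Cacna2d3 rose by 0.87 ± 0.16 (SE) in DKO against WT (limma, adjusted p = 0.00219) and by 0.62 ± 0.16 in Rb KO against WT (adjusted p = 0.0183). The Rb KO call was lost without Rb KO replicate 1 or 2 or WT replicate 1 or 3, at adjusted p values of 0.0547 to 0.0798. On the other side of Lrtm1, Selenok fell by 0.35 in DKO (adjusted p = 0.00487) and by 0.34 in Rb KO (adjusted p = 0.00794).

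Gpr152 overlaps Cabp4, so its probe set may share sequence or transcripts with that gene and its reading is uncertain. Cabp4 read 8.35, 9.45 and 9.13 in DKO, 8.42, 8.08 and 8.96 in Rb KO, and 10.85, 11.13 and 10.91 in WT retinas. The groups of mutants lay below WT without overlap, as for Gpr152. Cabp4 was above background on 2 of 3 DKO arrays, 1 of 3 Rb KO arrays and all 3 WT arrays. The sizes of its falls thus rest partly on readings under background. Cabp4 fell by 1.99 ± 0.27 (SE) in DKO against WT (limma, adjusted p = 2.85e-04) and fell by 2.47 ± 0.27 in Rb KO against WT (adjusted p = 9.56e-05). Both comparisons share the WT arrays. In DKO against Rb KO it differed by 0.48 (adjusted p = 0.498), where Gpr152 differed by 0.15. The neighbour on the other side, Coro1b, did not pass in either comparison with WT, at -0.12 in DKO and -0.18 in Rb KO.

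**Figure D4:**
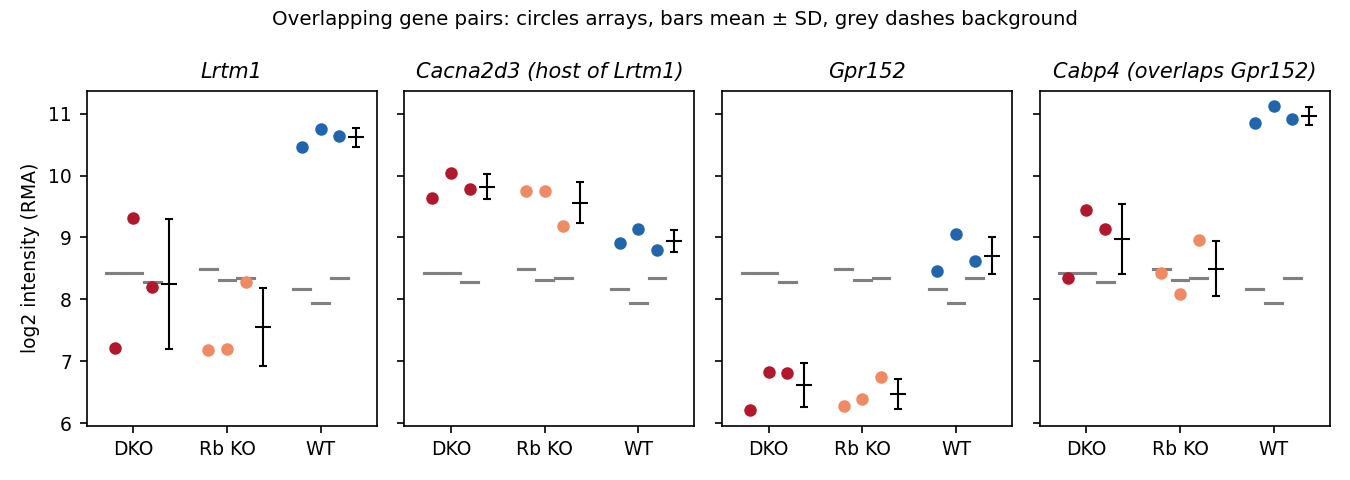
Log2 intensity (y axis) of Lrtm1 with its host gene Cacna2d3, and of Gpr152 with the overlapping gene Cabp4, on the DKO, Rb KO and WT arrays (x axis). Circles are arrays, bars are mean ± SD (n = 3) and grey dashes are the background level of each array. Cacna2d3 is higher in the mutants where Lrtm1 is lower, and Cabp4 is lower together with Gpr152.

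The measured neighbours of the other genes were mostly level or dim. Beside Drd4, Deaf1 differed from WT by 0.15 in DKO and 0.14 in Rb KO (adjusted p = 0.195 and 0.257 in limma), and Sct was not above background on any array. Beside Cds1, Wdfy3 differed by 0.02 and 0.01, and Nkx6-1 was not above background on any array. Card19, beside Susd3, fell by 0.61 in DKO (adjusted p = 0.00131) and by 0.50 in Rb KO (adjusted p = 0.00585). Ranbp6, beside Il33, was above background on 1 WT array alone, with readings lower by 0.44 and 0.56 that passed the test in both mutants (adjusted p = 0.00832 and 0.0027). The neighbours of Folh1, Olfr292 and Vmn2r77, were not above background on any array and did not pass the test.

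Genes of the same pathways and families as the 7 were counted in lists of which 198 genes were measured. Of these, 28 rose and 53 fell in DKO against WT, and 22 rose and 51 fell in Rb KO against WT. Without DKO replicate 2, 24 rose and 45 fell in DKO against WT. Over all genes 29.3% were called in DKO, 12.2% rising and 17.1% falling, and 24.4% in Rb KO, 10.2% rising and 14.3% falling. The median difference of the listed genes was -0.11 in both mutants, beside -0.06 and -0.05 over all genes. With the separation of positive from negative controls on each array as a covariate, 23 rose and 27 fell in DKO. In Rb KO 21 rose and 28 fell, so most of the excess of falls was lost. Over all genes most of it was lost too, with 2470 rises and 2482 falls in DKO and 2084 and 2220 in Rb KO. The separation was 0.932 to 0.954 in WT arrays and 0.927 to 0.936 in mutant arrays. The covariate thus partly follows genotype and may take up part of the difference from WT. In DKO against Rb KO 8 of the listed genes rose and 5 fell. Their median was 0.02, beside -0.00 over all genes, of which 1.34% rose and 1.21% fell. Some calls were made on readings under background in both groups, 25 in DKO and 23 in Rb KO against WT, and the lists were chosen with earlier results known. Below, a gene is said to have risen or fallen where limma's adjusted p was under 0.05.

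Dopamine and cyclic AMP genes, the signalling context of Drd4, counted 33 measured genes. In DKO 3 rose and 12 fell, with a median of -0.16, and in Rb KO 2 rose and 13 fell, with a median of -0.10. Drd2, the D2 dopamine receptor, fell by 0.79 in DKO (adjusted p = 9.98e-04) and by 0.68 in Rb KO (adjusted p = 0.00306). Its values were 8.86, 9.18 and 9.17 in DKO, 9.30, 8.94 and 9.28 in Rb KO, and 9.71, 10.04 and 9.82 in WT retinas, so the mutants did not reach WT. Adcy1, the calcium-activated adenylyl cyclase that makes cyclic AMP, fell by 0.88 in DKO and by 0.90 in Rb KO. Gnb5 and Rgs9, which together speed the shut-off of G proteins and belong to photoresponse recovery as well, fell by 1.16 and 1.32 in DKO and by 1.33 and 1.01 in Rb KO. The readings of Th, tyrosine hydroxylase, which makes the dopamine precursor, were under background on all arrays, as were those of Ddc and of Aanat, an enzyme of melatonin synthesis. The Th readings fell by 0.60 in DKO and by 0.38 in Rb KO, while Ddc and Aanat did not pass. Adcy2 fell in DKO, by 0.56 against WT and by 0.53 against Rb KO (adjusted p = 6.62e-04 and 0.00891), and differed by -0.03 in Rb KO against WT. It was the 1 fall of the list in DKO against Rb KO, beside 3 rises: Dbp, a clock output gene, by 0.51 (adjusted p = 0.0315), Drd1, the D1 dopamine receptor, by 0.39 (adjusted p = 0.0426), and the readings of Pde4b, a cyclic AMP phosphodiesterase, by 0.35 (adjusted p = 0.0399). Drd1 is named to complete the count, after its values were seen. The Adcy2 call held without each array in turn, whereas those of Dbp, Drd1 and Pde4b were lost without any one of 5, 7 and 7 arrays, at adjusted p values of up to 0.126, 0.145 and 0.186.

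Of the phosphoinositide cycle, in which Cds1 acts, 30 genes were measured. In DKO 3 rose and 13 fell, with a median of -0.22, and in Rb KO 4 rose and 10 fell, with a median of -0.15. Dgke, a diacylglycerol kinase that supplies phosphatidic acid, the substrate of Cds1, fell by 1.29 in DKO and by 1.05 in Rb KO (adjusted p = 1.31e-05 and 7.87e-05). Dgke read 8.43, 8.83 and 8.72 in DKO, 8.80, 8.82 and 9.08 in Rb KO, and 9.98, 9.92 and 9.95 in WT retinas, with no overlap with WT. Pitpnm3, a phosphatidylinositol transfer protein, fell by 1.49 in DKO and by 0.97 in Rb KO, and Pip4k2c, a lipid kinase, by 1.10 and 0.77. Pi4k2b readings rose in both, by 0.55 and 0.48, all of them under background, and the Rb KO call was lost without Rb KO replicate 2 or WT replicate 1 or 3. Plcd1, a phospholipase C, was at least 1.45-fold lower in DKO than in Rb KO (adjusted p = 0.00687) and was the only gene of the list to pass there. Cds2, the other CDP-diacylglycerol synthase gene, was not analysed here.

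Of the interleukin 33 and interleukin 1 family list 16 genes were measured, 3 of which rose and 3 fell in DKO, with a median of -0.03. In Rb KO 3 rose and 4 fell, with a median of -0.00. Of these calls, 5 in each mutant were made on readings under background in both groups. Il1rap, the accessory chain of the interleukin 33 receptor, had readings under background on all arrays that fell by 0.82 in DKO and by 0.95 in Rb KO. Rela, a subunit of NF-kappaB, rose by 0.53 in Rb KO (adjusted p = 0.0013) and differed by 0.24 in DKO (adjusted p = 0.0607). Il1rl1, the gene of the ligand-binding receptor chain, was not analysed here.

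Among leucine-rich repeat membrane proteins, the family of Lrtm1, 34 were measured. In DKO 4 rose and 11 fell, with a median of -0.14, and in Rb KO 1 rose and 11 fell, with a median of -0.23. Lrit1, a photoreceptor synapse protein, fell by 1.26 in DKO (adjusted p = 0.00938) and by 1.23 in Rb KO (adjusted p = 0.0128), the second call being lost without Rb KO replicate 1 or 2 (0.0524 to 0.0599). Lrit2 fell by 1.55 in DKO and by 0.72 in Rb KO, and the Rb KO call was lost without Rb KO replicate 1 or 2 or WT replicate 1 or 2 (adjusted p = 0.0632 to 0.127). Lrtm2, the nearest relative of Lrtm1 by name, went the other way in readings under background, rising by 0.42 in DKO (adjusted p = 0.00758) and differing by 0.28 in Rb KO (adjusted p = 0.0618). Lrrn1 rose by 0.85 and 0.53. In DKO against Rb KO Slitrk1 was at least 1.10-fold higher (adjusted p = 0.0082), Slitrk5 rose by 0.40 and Slitrk6 fell by 0.93. The Slitrk5 call was lost without any one of 5 mutant arrays, and that of Slitrk6 without DKO replicate 1 or 3.

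Of 35 orphan receptors other than Gpr152, 3 rose and 7 fell in DKO, with a median of -0.11. In Rb KO 1 rose and 6 fell, with a median of -0.12. Of these calls, 6 in DKO and 4 in Rb KO were made on readings under background in both groups. Gpr153 fell by 0.32 in DKO, a call lost without DKO replicate 1 or 3 or WT replicate 1 or 2, and by 0.48 in Rb KO (adjusted p = 0.0261 and 0.00392). Gpr19 readings, all under background, rose by 0.62 in DKO and by 0.48 in Rb KO (adjusted p = 3.19e-04 and 0.00213). Of 23 sushi domain proteins other than Susd3, 3 rose and 2 fell in DKO, with a median of -0.06. In Rb KO 2 rose and 2 fell, with a median of -0.11. Readings under background in both groups gave 3 of the calls in DKO and 2 of those in Rb KO. Susd2 was at least 1.32-fold lower in DKO than in WT and fell by 0.45 in Rb KO (adjusted p = 8.45e-04 and 0.011). Ncan rose by 0.40 in DKO and by 0.41 in Rb KO (adjusted p = 0.0192 and 0.0185), each call being lost without any one of 3 arrays. Csmd2 readings, all under background, rose by 0.48 in DKO and by 0.43 in Rb KO (adjusted p = 0.00325 and 0.00721).

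The NAAG and folate list, the setting of Folh1, had the most rises, 9 of 27 measured genes in each mutant, beside 5 falls in each. Readings under background in both groups gave 4 of these calls in DKO and 5 in Rb KO. The medians of the list were nevertheless -0.01 in DKO and -0.09 in Rb KO. Tyms, thymidylate synthase, read 9.22, 9.06 and 9.11 in DKO, 8.96, 9.06 and 8.56 in Rb KO, and 6.46, 6.71 and 6.70 in WT retinas. It was under background on all WT arrays and above it on all mutant arrays, and was at least 1.97-fold higher in DKO and at least 1.63-fold higher in Rb KO than in WT (limma, adjusted p = 2.11e-07 and 6.94e-07). Shmt1, which loads folate with a carbon unit, was at least 1.28-fold higher in DKO than in WT (adjusted p = 9.21e-07). Naalad2, the closest relative of Folh1 in the list, read under background on all arrays and its readings fell by 0.71 in DKO and by 0.55 in Rb KO. Grm3, the receptor for NAAG, was at least 1.07-fold lower in Rb KO than in WT (adjusted p = 0.0418), a call that was lost without any one of 6 arrays.

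With the same covariate, the calls of Lrit1 and Ncan in both mutants, of Lrit2, Susd2 and Grm3 in Rb KO and of Gpr153 in DKO were lost. So were those of Selenok in both, Cacna2d3 and Card19 in Rb KO and Ranbp6 in DKO (adjusted p of the lost calls 0.0522 to 0.317 in limma).

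**Figure D5:**
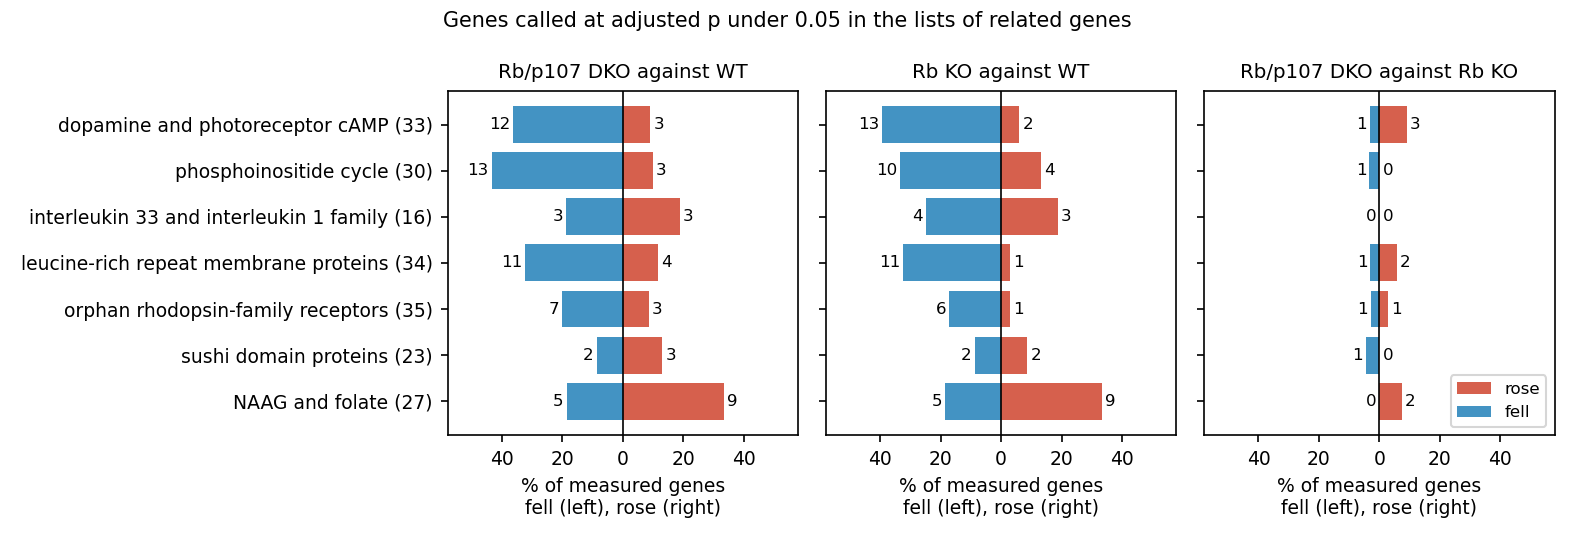
Share of the measured genes of each pathway or family list (rows, number measured in brackets) that rose (right, red) or fell (left, blue) at an adjusted p under 0.05, in % (x axis), for DKO against WT, Rb KO against WT and DKO against Rb KO. Numbers at the bars are genes. The phosphoinositide cycle has 13 falls of 30 genes in DKO, and the NAAG and folate list has 9 rises of 27 genes in each mutant against WT.

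Markers of the cells that could hold the transcripts moved as well. All 15 measured rod markers were above background in WT retinas, as the label retina requires, and all 15 fell in both mutants, with medians of -1.48 in DKO and -1.30 in Rb KO. Their summed linear signal was 23789 to 39849 in DKO, 24046 to 39265 in Rb KO and 67015 to 70420 in WT arrays. Of 9 cone markers all fell in DKO and 7 in Rb KO. Of 13 bipolar cell markers 0 rose and 10 fell in DKO, and 1 rose and 11 fell in Rb KO. Of 13 ganglion cell markers 1 rose and 10 fell in DKO, and 1 rose and 9 fell in Rb KO. Of 7 amacrine cell markers 2 rose and 4 fell in each mutant, 2 of these calls in each on readings under background in both groups. Of 5 horizontal cell markers 1 rose and 2 fell in DKO, and 1 rose and 1 fell in Rb KO.

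The Muller glia list is given for Il33 because these cells are known to make it, not because the profiles were alike. The nearest profiles of Il33, those of Vtn, Cabp4 and Aipl1, are not on that list. Its readings differed from WT by -1.69 in DKO and -2.32 in Rb KO. Of 11 measured Muller markers 1 rose and 5 fell in DKO, and 3 rose and 5 fell in Rb KO, with medians of -0.07 and -0.25. Their summed signal was 12393 to 13087 in DKO, 12091 to 12850 in Rb KO and 13622 to 15988 in WT arrays, so every mutant array lay below every WT array. Rlbp1, the retinaldehyde-binding protein of Muller glia and pigment epithelium, fell by 0.94 in DKO and by 0.73 in Rb KO, more than the list medians. Astrocyte markers summed to 1534 to 1774 in DKO, 1457 to 1552 in Rb KO and 1589 to 1884 in WT arrays, and Pax2, S100b, Aldh1l1, Slc4a4 and Gja1 were not above background anywhere. Of 12 microglia markers 5 rose in DKO and 6 in Rb KO and none fell. Their sums were 2600 to 3449 in DKO, 2123 to 3111 in Rb KO and 1706 to 1854 in WT arrays. Of these markers 9, Tmem119 among them, were not above background on any array. Readings under background in both groups gave 3 of the 5 rises in DKO and 4 of the 6 in Rb KO.

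Of 15 genes listed as vessel markers 12 fell in each mutant, 4 of them in each on readings under background in both groups. Their sums were 9224 to 9553 in DKO, 8732 to 9298 in Rb KO and 10618 to 12946 in WT arrays. On no DKO array were 12 of the 15 above background, on no Rb KO array 13 and on no WT array 5. Vtn is on this list and enters the sums. Its readings differed from WT by -1.88 in DKO and -2.32 in Rb KO, beside list medians of -0.88 and -0.66. Of 11 pigment epithelium markers 9 fell in DKO and 10 in Rb KO, 3 and 4 of them on readings under background in both groups. Their sums were 1245 to 1486 in DKO, 1456 to 1620 in Rb KO and 3044 to 4024 in WT arrays. None of the 11 was above background on a DKO array. On no Rb KO array were 10 of them above background, and on no WT array 5. Lens markers counted 5 rises and 1 fall in DKO and no call in Rb KO. Their sums were 2796 to 10045 in DKO, 1764 to 2445 in Rb KO and 1725 to 2214 in WT arrays. DKO replicate 2 was far the highest, and every DKO array lay above every Rb KO and WT array. The part of any of these cell populations in the readings of the 7 genes was not tested.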

How the data were processed

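Total RNA of 9 retina samples was measured on Affymetrix arrays. The deposited values are log2 intensities normalised with RMA, per the submitters' processing notes; software version and genome build are not given in the sources used here. Of 52917 transcript clusters, 24646 had 1 gene symbol, 1795 several and 26476 none in the platform annotation. Each gene was read on its brightest probe set, giving 24259 genes, 24007 of them in the reference gene table (GRCm38.p6), with 658 symbols updated. Genes on several chromosomes were hardly represented and are not analysed here.

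All 9 arrays entered 1 limma fit (version 3.58.1, R 4.3.3) on 3 group means with empirical Bayes variances (6 residual and 4.69 prior degrees of freedom) and Benjamini-Hochberg adjustment over all genes, called at 0.05. The fit was tested on simulated data. Replicates are biological, per the labels, and 3 arrays per group limit the precision. Batches and scan dates are not given in the sources used here. Figures used Python 3.11.15 and matplotlib 3.10.9.

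The 7 genes and all lists were chosen with earlier results of these data known. The naming rule covered the 7 genes, their 3 nearest profiles and their measured neighbours. It also covered a short fixed set including Rb1, Th, Drd2, Il1rap and Lrit1. From each list it covered up to 2 rising and 2 falling genes with the lowest p per comparison. Not every gene that the rule covered is named. Alternatives were renewed quantile or median scaling, averaged probe sets, moderated variance trend, a filter on dim genes, a 2-fold threshold, the replicate number as block, control separation as covariate, fits of 2 groups, and each array left out.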

Additional observations from a re-analysis of the deposited data

How the results depend on the processing

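The median difference of the 7 genes stayed between -2.40 and -2.18 in Rb KO against WT and between -2.20 and -1.81 in DKO against WT when each array was left out, and none of the 7 passed in DKO against Rb KO under any alternative run. With the 99th percentile of the controls as background, 1 rather than 6 of the 7 was above it on every WT array. The Folh1 estimate in DKO against Rb KO turned negative after renewed quantile normalization (-0.0014), and ranged from -0.24 to 0.23 when each array was left out; the cause was not tested. Folh1 has no value under the filter on dim genes, which removes it. The Rb1 difference in DKO against WT was 0.74 with averaged probe sets.

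The number of genes called in Rb KO against WT was 5923, and 757 with a 2-fold threshold. In DKO against WT it was 7113, but 4330 with the filter on dim genes, which tests fewer genes, and 955 with the 2-fold threshold. In DKO against Rb KO it was 617, but 116 with the 2-fold threshold, and 253 to 859 when each array was left out. With control separation as covariate, 50 rather than 81 of the 198 pathway genes were called in DKO against WT. In Rb KO against WT 49 rather than 73 of them were called. Over all genes the covariate left 4952 calls in DKO and 4304 in Rb KO against WT. The cause was not tested. The pathway genes called in DKO against Rb KO were 13, and 4 to 14 when each array was left out. With the replicate number as a block 8 were called. Same-numbered arrays correlated at -0.16 to 0.15 in their deviations, and differently numbered arrays at -0.33 to 0.25. The correlations thus showed no pairing by number, but with 3 arrays per group they cannot exclude one. Of 2061 values for single named genes under the alternatives, 1787 kept direction and side of the threshold, 269 lost the call and 5 turned in sign.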
